A study of Mus musculus with 6 samples.

Results

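Replication origin licensing was described here through 10 genes, Mcm2, Mcm3, Mcm4, Mcm5, Mcm6, Mcm7, Orc1, Cdc6, Cdt1 and Gmnn, in a mouse Leydig-type cell line exposed to 4-nitrophenol. The genes were picked by name, and their probes were the 17 of 56605 array probes whose transcript accession belongs to one of them, out of 23462 gene symbols named in all. The tested cells were TM3 cells, a male mouse testicular somatic line derived from Leydig cells, exposed for 24 h to 10 µM of 4-nitrophenol (abbreviated PNP), a breakdown product of the insecticide parathion. The control cells were TM3 cells given 0 µM PNP for the same 24 h. Each group held 3 samples, each on its own 1-colour Agilent array. No genotype change or further agent is named for either group, and all samples came from 1 cell line. Nothing in the labels says that the samples of a group were separate cultures, so a p-value here reflects the scatter among these samples alone, and that scatter may be technical.

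Before a cell copies its DNA, each origin of replication is made ready once per cycle. The origin recognition complex, of which Orc1 is the largest subunit, marks the origin, and Cdc6 and Cdt1 join it to load the ring-shaped helicase built from the Mcm2 to Mcm7 proteins. Geminin, the product of Gmnn, binds Cdt1 and blocks a new round of loading until mitosis is over. In growing mammalian cells these genes are known as targets of the E2F transcription factors, and their transcripts are most abundant around the start of S phase.

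Because these genes are textbook E2F targets, their promoters were read from RefSeq on build GRCm38.p6, taking the 250 bases before each transcript start. The table held 9 such windows for 8 of the 10 genes, with 2 for Mcm7, and none for Mcm4 and Gmnn. The windows of Orc1 and Cdc6 lay inside the gene's own span, before a transcript that starts within it. Those of Mcm5 and Mcm7 lay inside the span at least in part. The 8-letter words TTTCCCGC, TTTCGCGC, TTTGCCGC and TTTGGCGC, all forms of the E2F consensus, were searched on both strands. At least 1 such word stood in 5 of the 9 windows, against 1.88% of the 32526 windows of all genes. The 5 windows that hold one are shown 5′ to 3′ in the direction of the gene, with the words in capitals.

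Mcm5, chr8:75109259-75109508, plus strand: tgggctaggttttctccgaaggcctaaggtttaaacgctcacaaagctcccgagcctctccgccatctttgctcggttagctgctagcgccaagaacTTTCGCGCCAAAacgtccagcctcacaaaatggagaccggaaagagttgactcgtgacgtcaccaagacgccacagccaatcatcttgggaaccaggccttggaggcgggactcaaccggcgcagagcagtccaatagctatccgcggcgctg
Mcm6, chr1:128359706-128359955, minus strand: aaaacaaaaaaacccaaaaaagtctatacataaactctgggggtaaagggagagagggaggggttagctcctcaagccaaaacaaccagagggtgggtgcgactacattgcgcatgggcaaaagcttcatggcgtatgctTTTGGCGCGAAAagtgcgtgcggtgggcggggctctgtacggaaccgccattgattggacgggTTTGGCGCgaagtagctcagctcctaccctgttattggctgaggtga
Mcm7, chr5:138171884-138172133, minus strand: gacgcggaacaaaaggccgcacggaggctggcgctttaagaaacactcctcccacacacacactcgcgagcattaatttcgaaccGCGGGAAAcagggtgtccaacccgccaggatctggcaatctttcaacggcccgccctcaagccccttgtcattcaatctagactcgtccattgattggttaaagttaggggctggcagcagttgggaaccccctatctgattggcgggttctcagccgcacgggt
Orc1, chr4:108579204-108579453, plus strand: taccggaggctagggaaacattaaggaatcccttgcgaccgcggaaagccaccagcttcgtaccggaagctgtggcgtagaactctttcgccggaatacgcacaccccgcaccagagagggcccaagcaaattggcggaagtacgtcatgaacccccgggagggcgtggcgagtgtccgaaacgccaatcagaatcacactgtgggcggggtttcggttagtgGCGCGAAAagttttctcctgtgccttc
Cdc6, chr11:98907901-98908150, plus strand: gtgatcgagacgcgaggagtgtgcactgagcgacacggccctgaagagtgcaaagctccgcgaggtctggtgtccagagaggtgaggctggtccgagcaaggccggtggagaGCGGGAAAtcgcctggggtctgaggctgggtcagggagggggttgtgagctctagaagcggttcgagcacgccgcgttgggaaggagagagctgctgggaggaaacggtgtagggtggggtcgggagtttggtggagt

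Mcm6 held 3 words, a pair of which overlap and read as 1 run of capitals, and Mcm5 held 2 that overlap in the same way. Mcm7, in the first of its windows, Orc1 and Cdc6 held 1 each. In the Orc1 window the word began 27 bases before the start, and in the others the first word began between 110 and 165 bases before it. The CCAAT box, read on both strands, was in 7 of the 9 windows, against 33.8% of all windows. The word TTTGAA, the core of the CHR element of late cell cycle genes, was in 1 window, that of Mcm2, against 15.8% of all windows. The 9 windows held from 48.0 to 68.4% GC, against a median of 52.4% over all windows. The shares given for all windows are not matched for GC. A word match describes these letters and says nothing of binding.

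The measure throughout is the scaled log2 signal, the log2 of the scanner's processed signal minus the 75th percentile of the same array, so that 0 stands for a spot at that percentile. All 6 arrays were on 1 slide and in 1 scan, in slide columns that cross the groups. PNP arrays 1 and 3 and control array 2 lay in even columns, and PNP array 2 and control arrays 1 and 3 lay in odd columns. All controls and PNP array 1 lay in the first slide row, and PNP arrays 2 and 3 in the second. The scanner software marked more spots as outliers on PNP arrays (12.3% ± 0.814, SD, n = 3) than on control arrays (7.75% ± 1.27, SD, n = 3), with an exact permutation p of 0.1, the smallest that 3 against 3 arrays allow. Such spots were left out. The 75th percentile used for scaling, in log2, ran from 12.137 to 12.368 on PNP arrays and from 12.389 to 12.501 on control arrays. The median background ran from 49 to 55 and from 58 to 60. Both gave the same exact permutation p of 0.1, and the share of spots well above background gave 0.9. The part of these measures in the licensing values was not tested. Of the 102 spots of the licensing probes 18 were marked, with 5, 5 and 4 on PNP arrays 1, 2 and 3 and 2, 2 and 0 on control arrays 1, 2 and 3. Across the 6 arrays, all 17 licensing probes were well above background and none was saturated. Of the Leydig markers, Nr5a1, Scarb1 and Star were well above background on all 6 arrays and Cyp17a1 on 5, Hsd3b1 on at most 1, and Cyp11a1 and Lhcgr on none. Of the markers of other cell types, 5 of 5 for peritubular myoid cells, 5 of 7 for leukocytes, 5 of 8 for germ cells, 4 of 8 for Sertoli cells and 0 of 5 for endothelial cells were above background on all 6 arrays. Among those above background on no array were Ptprc and Adgre1 (leukocytes), Amh and Fshr (Sertoli cells), Prm1 (germ cells) and Cdh5, Kdr and Tek (endothelium). The summed linear signal of the myoid markers ran from 20.2 to 21.5 on PNP arrays and from 17.95 to 19.88 on control arrays, without overlap, and that of the leukocyte markers from 5.826 to 7.881 on PNP arrays and from 5.835 to 6.44 on control arrays. The endothelial sum, with at most 2 of 5 markers above background on an array, ran from 0.0704 to 0.0726 on PNP and from 0.0541 to 0.0678 on control arrays. The Leydig, Sertoli and germ cell sums overlapped between the groups. Of single genes, 9.66% of all tested lay wholly above the controls on PNP arrays. The part of these cell type markers in the values of the licensing genes was not tested.

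None of the licensing genes passed the test after PNP. With limma and Benjamini-Hochberg adjustment, 0 of the 8 that could be tested had an adjusted p below 0.05, against 0% of the 13138 genes tested. At an unadjusted p below 0.05 there were also 0 of 8, against 6.52% of all genes, 5.02% being higher and 1.49% lower in PNP cells. The 8 differences between PNP and control cells ran from -0.33 for Orc1 to 0.09 for Mcm7, with a median of -0.02, against a median of 0.04 over all genes. In 5 of 8 genes the PNP mean was below the control mean, against 37% of all genes. This count became 7 when arrays were scaled on their median and 8 with quantile normalization or the authors' values. The all-gene median fell as well in these settings, to -0.0182, 0.0097 and 0.0102. With slide column as a block the count was 3 of 8, where the median of the 8 was 0.017. Without PNP array 3 it was 2 of the 7 that could be tested. No licensing gene had PNP values wholly below or wholly above the control values, where 3.75% of all genes lay wholly below and 9.66% wholly above. For the brightest tested probe of each gene, the 95% interval excluded a 2-fold difference in either direction for 8 of 8 genes. It excluded a 1.5-fold difference for 7, all but Orc1. Among the dimmer tested probes, that of Mcm6 did not exclude a 1.5-fold fall either (-0.67 to 0.06). Mcm2 and Mcm4 could not be tested because too few unmarked spots were left in the PNP group. In bulk RNA, fewer cells expressing a gene and less RNA per cell cannot be told apart.

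**Figure D1:**
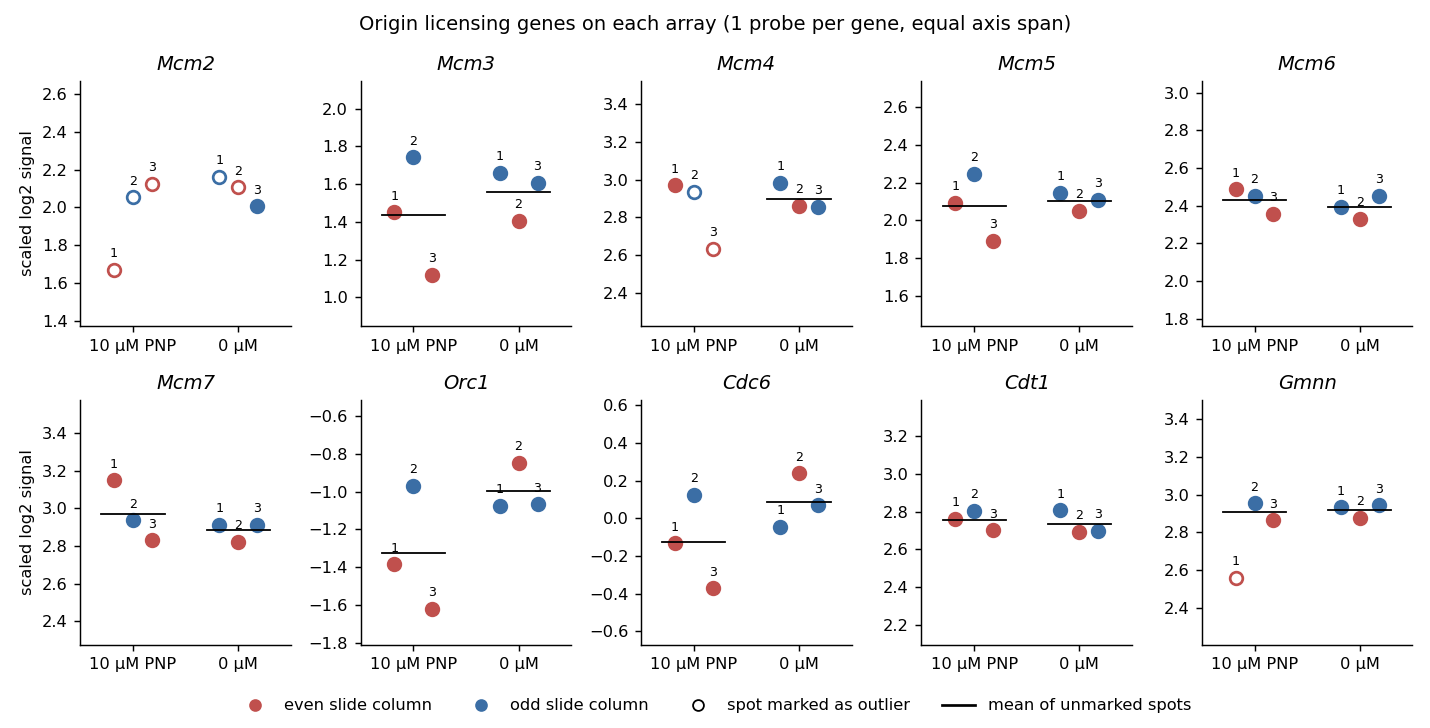
Scaled log2 signal (vertical axis, same span in each panel) of 1 probe for each of the 10 licensing genes on the 3 PNP arrays and the 3 control arrays, numbered by replicate. Filled points are unmarked spots, coloured by slide column, open points are spots marked as outliers and bars are group means of unmarked spots; in every panel the groups overlap.

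Of the helicase subunits, Mcm3, Mcm5, Mcm6 and Mcm7 could be tested. Mcm3 had signals of 1.45, 1.74 and 1.12 on PNP arrays 1, 2 and 3, against 1.66, 1.41 and 1.61 on control arrays 1, 2 and 3. The highest and the lowest of its 6 values were both on PNP arrays, so the controls lay inside the PNP range. The Mcm3 difference was -0.12 (SE 0.16, 95% interval -0.49 to 0.25, adjusted p = 0.951).

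Mcm5, whose product forms the gate of the ring with that of Mcm2, had 2.09, 2.25 and 1.89 on the PNP arrays, against 2.14, 2.05 and 2.11 on the control arrays. Here too PNP array 2 was highest and PNP array 3 lowest, with the controls between them. The Mcm5 difference was -0.02 (SE 0.11, 95% interval -0.28 to 0.23, adjusted p = 0.982), and its sign turned with slide column as a block (0.030) and with another background correction (0.018).

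Mcm6 had 2.49, 2.45 and 2.36 on the PNP arrays, against 2.39, 2.33 and 2.45 on the control arrays. Its 6 values lay close together, PNP arrays 1 and 2 standing at the top and control array 2 at the bottom. The Mcm6 difference was 0.04 (SE 0.09, 95% interval -0.17 to 0.25, adjusted p = 0.963).

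Mcm7, which with Mcm4 and Mcm6 forms the catalytic core of the ring, had 3.15, 2.94 and 2.83 on the PNP arrays, against 2.91, 2.82 and 2.91 on the control arrays. PNP array 1 stood well above the rest, PNP array 2 just above the controls, and PNP array 3 among them. The Mcm7 difference was 0.09 (SE 0.11, 95% interval -0.16 to 0.34, adjusted p = 0.949). The signs of Mcm6 and Mcm7 turned with quantile normalization (-0.018 and -0.023) and in the authors' values (-0.015 and -0.016), so neither direction is settled.

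For Mcm2, 5 of 6 spots were marked as outliers, the exception being control array 3 at 2.01. With the marked spots kept, Mcm2 had 1.67, 2.05 and 2.13 on the PNP arrays, against 2.16, 2.11 and 2.01 on the control arrays, which overlap, with PNP array 1 lowest. That setting gave a Mcm2 difference of -0.14 (SE 0.14, adjusted p = 0.876). For Mcm4 the spots on PNP arrays 2 and 3 were marked. With them kept, Mcm4 had 2.97, 2.94 and 2.63 on the PNP arrays, against 2.98, 2.86 and 2.86 on the control arrays. PNP array 3 was lowest and the groups overlapped, with a difference of -0.05 (SE 0.12, adjusted p = 0.946).

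Orc1 and Cdc6 had the differences farthest below 0 of the 8 tested genes. Their probes also had the lowest signals of the 8, and the part of signal level was not tested. Orc1, an ATPase of the origin recognition complex, had -1.39, -0.97 and -1.62 on the PNP arrays, against -1.07, -0.85 and -1.07 on the control arrays. PNP arrays 1 and 3 lay below every control, while PNP array 2 lay among the controls. The Orc1 difference was -0.33 (SE 0.17, 95% interval -0.71 to 0.05), with an unadjusted p of 0.0827 and an adjusted p of 0.811 in limma. Leaving out 1 array at a time moved it between -0.51 and -0.18, below 0 each time and past the threshold in no case.

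Cdc6, the ATPase that brings Cdt1 and the helicase to the complex, had -0.13, 0.12 and -0.37 on the PNP arrays, against -0.05, 0.24 and 0.07 on the control arrays. As for Orc1, PNP arrays 1 and 3 lay below every control and PNP array 2 did not. The Cdc6 difference was -0.21 (SE 0.14, 95% interval -0.54 to 0.12, adjusted p = 0.880).

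Cdt1 and its inhibitor showed the narrowest ranges. Cdt1, which escorts the helicase to the origin, had 2.76, 2.80 and 2.70 on the PNP arrays, against 2.81, 2.69 and 2.70 on the control arrays. The groups covered nearly the same range. The Cdt1 difference was 0.02 (SE 0.09, 95% interval -0.18 to 0.23, adjusted p = 0.977), and it was below 0 under 4 other scalings or background corrections.

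Gmnn had 2.95 and 2.86 on PNP arrays 2 and 3, against 2.93, 2.88 and 2.94 on the control arrays. Its spot on PNP array 1 was marked as an outlier and left out, so the fit rests on 2 PNP arrays, which bracket the controls. The Gmnn difference was -0.0082 (SE 0.10, 95% interval -0.25 to 0.24, adjusted p = 0.997), and 0.004 with slide column as a block. With the marked spot kept, at 2.56 the lowest of the 6 values, the difference was -0.13 (SE 0.13, adjusted p = 0.878).

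Further probes of the same genes did not all give the same value. Of the 17 probes 12 could be tested, and 9 of these 12 had a PNP mean below the control mean, against 36.6% of all probes. None passed the test, against 0% of the 27222 probes tested. Values of different probes are set side by side here only as differences between groups, since their signals are not on a common scale.

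The dimmer Mcm6 probe had -0.73, -0.13 and -0.61 on the PNP arrays, against -0.19, -0.18 and -0.20 on the control arrays. PNP arrays 1 and 3 lay far below the controls, which were nearly equal, and PNP array 2 lay just above them. Its difference was -0.30 (SE 0.16, adjusted p over probes = 0.748), against 0.04 for the brightest Mcm6 probe. That gap between probes of 1 gene was at percentile 4.23 of the 4370 such gaps among all tested genes.

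The dimmer Mcm7 probe had -1.77, -1.24 and -1.80 on the PNP arrays, against -1.40, -1.45 and -1.37 on the control arrays. It again put PNP arrays 1 and 3 below and PNP array 2 above all controls. Its difference was -0.20 (SE 0.16, adjusted p over probes = 0.837), against 0.09 for the brightest Mcm7 probe, a gap at percentile 6.5. Opposite signs between the brightest and a further probe occurred in 38.7% of all such pairs, and in 2 of the 4 pairs of licensing genes.

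The dimmer Mcm3 probe, with 1.27, 1.51 and 1.00 on the PNP arrays, against 1.49, 1.36 and 1.44 on the control arrays, gave -0.17 (SE 0.14). It kept the order of the PNP arrays seen with the brightest probe. The dimmer Orc1 probe, with -1.65, -1.38 and -1.97 on the PNP arrays, against -1.56, -1.45 and -1.43 on the control arrays, gave -0.19 (SE 0.15). PNP arrays 1 and 3 were its lowest values too. One more Mcm3 probe and a second probe each of Cdc6 and Gmnn had too few unmarked spots. With these kept their differences were -0.16 (SE 0.13), -0.24 (SE 0.16) and -0.00083 (SE 0.13).

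**Figure D2:**
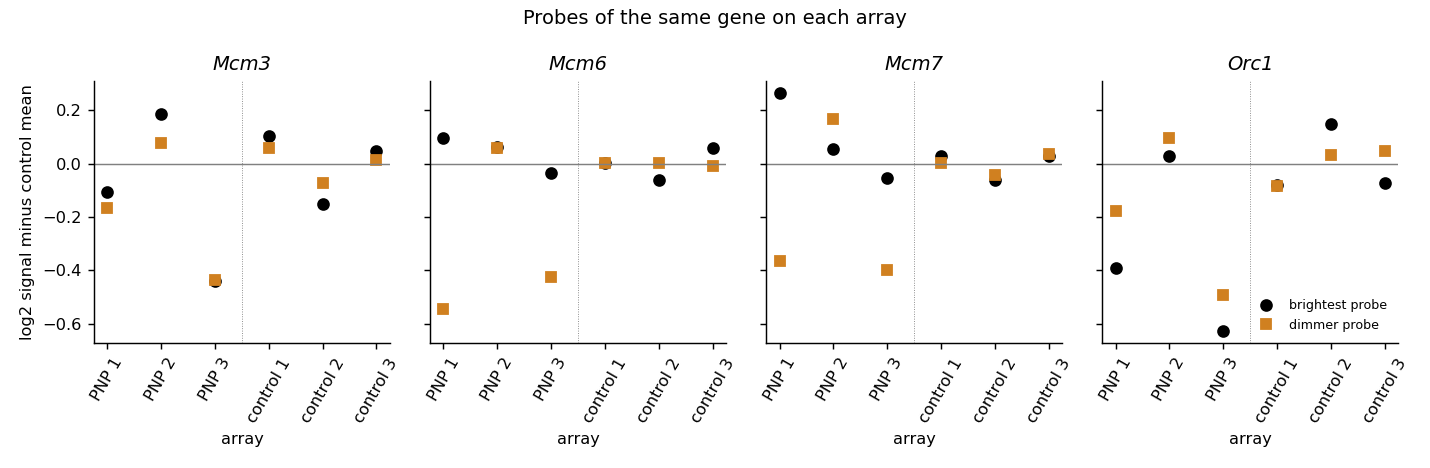
Log2 signal of each tested probe minus the same probe's mean over the control arrays (vertical axis), on the 3 PNP arrays and the 3 control arrays, for the 4 licensing genes with a pair of tested probes. Circles are the brightest and squares the dimmer probes; both follow each other for Mcm3 and Orc1, and part on PNP arrays 1 and 3 for Mcm6 and Mcm7.

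The licensing genes varied more among PNP arrays than among control arrays. The SD over the PNP arrays was the larger in 7 of 8 genes, Cdt1 being the exception, against 65.2% of all genes, with median SDs of 0.17 in PNP and 0.0626 in control cells, where all genes had 0.148 and 0.105. Set against the control mean of each gene, PNP array 3 was lower for 8 of 8 genes, with a median of -0.13, against 44.1% of all genes. PNP array 2 was higher for 8 of 8 genes, with a median of 0.06, where 46.4% of all genes were lower. PNP array 1 was lower for 4 of 7 genes, with a median of -0.01, against 31.5% and a median of 0.10 for all genes. The median PNP minus control difference was -0.11 without PNP array 2 and 0.05 without PNP array 3. PNP arrays 2 and 3 thus stood on opposite sides of the controls for these genes.

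Read by slide column, in a limma fit with terms for group and column, the even minus odd difference was below 0 for 8 of 8 genes and 12 of 12 probes, and for 7, 6 and 6 of the 8 genes with arrays scaled on their median, with quantile normalization and in the authors' values. Of all genes 50.4% were below 0. The comparison by slide column was chosen with earlier results of these data known. The median over the 8 was -0.07, against -0.0013 over all genes. None of the 8 passed the test, against 0.145% of the 13100 genes with an estimate, or 19 genes. Mcm3 had the difference farthest from 0, at -0.34 (SE 0.13, 95% interval -0.63 to -0.05, adjusted p = 0.326), and was the 1 gene with an unadjusted p below 0.05, where 5.76% of all genes were lower at that level. Mcm5 followed at -0.17 (SE 0.11, adjusted p = 0.620) and Orc1 at -0.16 (SE 0.17, adjusted p = 0.798). The other 5 lay between -0.07 and -0.02. Without PNP array 2, the 1 PNP array in an odd column, the column difference was 0.22 for Orc1 and 0.23 for Cdc6. In the same fit the PNP minus control difference was -0.0056 for Mcm3, -0.28 (SE 0.17) for Orc1 and -0.19 (SE 0.15) for Cdc6, and 0 of 8 licensing genes passed, against 0.00761% of all genes.

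**Figure D3:**
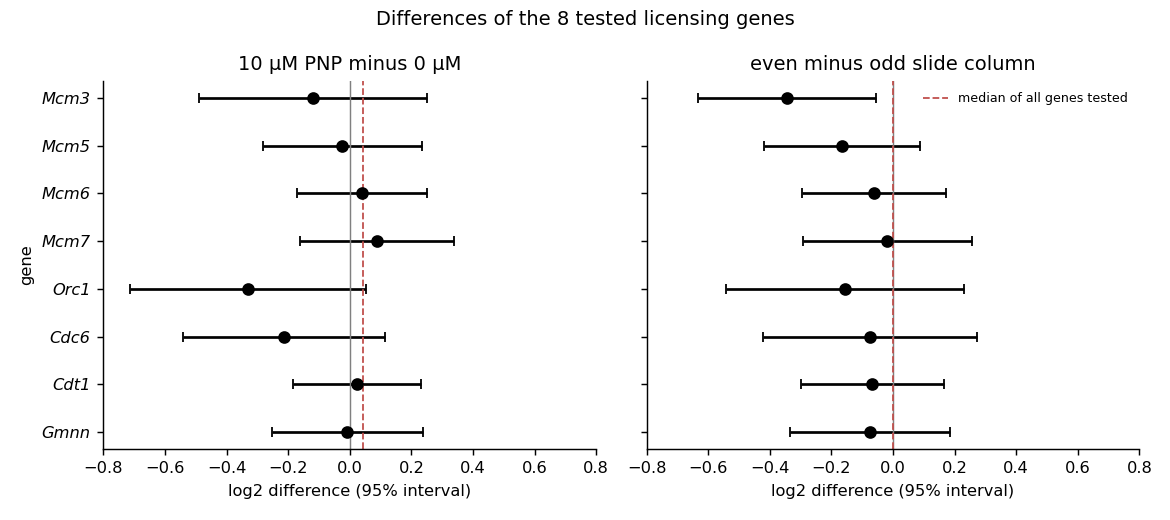
Log2 differences with 95% intervals of the 8 tested licensing genes, PNP minus control (left panel) and even minus odd slide column (right panel). Dashed lines mark the median of all genes; all intervals but that of Mcm3 by column include 0.

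Within columns, the groups compare 2 PNP arrays with 1 control array in the even columns, and 1 PNP array with 2 control arrays in the odd ones. In the even columns 5 of 8 licensing genes were lower in PNP than in control cells, with a median of -0.04, where 34.6% of all genes were lower. In the odd columns 0 of 8 were lower, with a median of 0.08, where 47.8% of all genes were lower. Orc1 differed by -0.66 in the even columns and by 0.10 in the odd ones. For Cdc6 the values were -0.49 and 0.11, for the dimmer Mcm6 probe -0.49 and 0.06, and for the dimmer Mcm7 probe -0.34 and 0.15. The dimmer Orc1 and Mcm3 probes gave -0.37 and -0.23 in the even columns and 0.11 and 0.04 in the odd ones. The brightest probes of the other 6 genes stayed between -0.12 and 0.17 in both kinds of column. The even-column values share control array 2, which held the highest control signals of Orc1 and Cdc6.

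The difference between the column kinds was fitted as an interaction term, a test added after these values were seen, on the 11110 genes measured on all arrays, 7 licensing genes among them. The PNP minus control difference in even minus that in odd columns was -0.76 for Orc1 (SE 0.23, unadjusted p = 0.0097, adjusted p = 0.265) and -0.60 for Cdc6 (SE 0.23, unadjusted p = 0.0314, adjusted p = 0.412) in limma. It lay between -0.23 and 0.14 for the Mcm genes and Cdt1. None of the 7 passed, against 0.351% of all genes, and 4.01% of all genes were lower at an unadjusted p below 0.05. The term rests on 1 control array in the even columns and 1 PNP array in the odd ones.

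The mean of the 7 genes measured on all arrays, each centred on its own mean, was -0.0096, 0.12 and -0.23 on PNP arrays 1, 2 and 3, against 0.04, 0.03 and 0.04 on control arrays 1, 2 and 3. The controls were nearly level, and the pattern is mostly the gap between PNP arrays 2 and 3. Over the 6 arrays Mcm5 (Pearson r 0.946), Mcm3 (0.936), Orc1 (0.858) and Cdc6 (0.846) followed this mean most closely, while Cdt1 (0.510), Mcm6 (0.418) and Mcm7 (0.241) followed it less. Each gene is part of the mean it is set against, and genes on an array share its scaling, so these r values are descriptions.

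Among 9931 named genes outside the 10, those most like the mean over the 6 arrays were Plxna3 (r 0.992), a semaphorin receptor, Mzf1 (0.991), a zinc finger factor, and Cep152 (0.991), a centriole duplication protein. Birc6 (0.990), an inhibitor of apoptosis, and Abi3 (0.987), a regulator of the actin cytoskeleton, came next. Abi3 had -4.66, -3.81 and -5.67 on the PNP arrays, against -4.09, -4.23 and -4.09 on the control arrays, again with PNP array 2 high and PNP array 3 low. An r of at least 0.95 was reached by 54 genes (0.544%). None of the 5 named passed the group test, with adjusted p from 0.880 to 0.953.

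Genes that act around licensing were read from lists chosen with earlier results of these data known. With all arrays kept, none of their genes passed in either direction, in PNP minus control or by slide column. Of the other origin recognition complex subunits 4 of 5 tested had a PNP mean below the control mean, with a median of -0.13, against the 37% and 0.04 of all genes. The count was 2 of 4 tested without PNP array 1, PNP array 3, control array 2 or control array 3. It was 2 of 5 without control array 1 and 5 of 5 without PNP array 2. Orc3 (-0.14, SE 0.12), Orc6 (-0.13, SE 0.12) and Orc5 (-0.15, SE 0.16), the subunits of smallest p, had adjusted p of 0.927, 0.927 and 0.946. Orc3 and Orc5 each rest on 2 arrays a group, and the Orc5 sign turned under 5 of 17 alternatives. A second Orc5 probe, which stood in where the first could not be tested, gave 0.16 (SE 0.23) with all arrays. Further probes of Orc4 gave -0.10 and -0.12, against 0.05 for its brightest.

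Of the genes that activate the loaded helicase and fire origins, 12 of 14 tested had a PNP mean below the control mean, with a median of -0.10, and 12 with the other 3 scalings. With slide column as a block the count was 8 of 14 and the median -0.04. The count was 10 of 14 with another background correction and 9 of 14 without PNP array 3. Ccne2, cyclin E2, which drives entry into S phase, had -5.89, -4.36 and -5.94 on the PNP arrays, against -3.33, -3.92 and -5.42 on the control arrays. It was well above background on 4 arrays only, control array 3 was low as well, and the groups overlapped. The Ccne2 difference was -1.18 (SE 0.57, adjusted p = 0.805). Cdk2, the kinase that partners cyclin E, had -0.852, -0.797 and -1.23 on the PNP arrays, against -0.735, -0.745 and -0.713 on the control arrays, so every PNP value lay below every control. Its difference was -0.23 (SE 0.13, adjusted p = 0.846), and that of Donson, which delivers helicase parts to the origin, was -0.23 (SE 0.15, adjusted p = 0.878).

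The other members of the Mcm family and the Mcm-binding genes had differences above 0 in 3 of 3, with a median of 0.11. With another background correction, with median scaling or without control array 2, 1 of 3 was below 0. Without PNP array 1 it was 1 of 2 tested. Mcmdc2, a meiotic relative of the helicase subunits, gave 0.15 (SE 0.15) on 2 PNP arrays, and Mcmbp, which binds the Mcm ring, gave 0.04 (SE 0.10). Mcm9, a subunit of a repair helicase, gave 0.11 (SE 0.24) with its brightest probe and -0.34 (SE 0.17, adjusted p over probes = 0.740) with a second one.

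Of the genes that turn over licensing factors 3 of 7 had a PNP mean below the control mean, with a median of 0.03, and 6 of 7 when arrays were scaled on their median. Usp7, a deubiquitinase with many substrates, had -0.40, -0.18 and -0.25 on the PNP arrays, against 0.23, 0.02 and 0.05 on the control arrays. Every PNP value was below every control. The Usp7 difference was -0.38 (SE 0.11, unadjusted p = 0.00745, adjusted p = 0.740 in limma), and it ranged from -0.50 to -0.01 over 17 alternatives, none of which called it. Dtl, the substrate receptor that sends Cdt1 to degradation, gave -0.14 (SE 0.14), and Cdc20, an activator of the anaphase-promoting complex, gave 0.07 (SE 0.10).

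Among the E2F and RB genes 5 of 8 were below 0, with a median of -0.07. E2f7, a repressive member of the family, had -1.38, -1.50 and -1.26 on the PNP arrays, against -1.61, -1.68 and -1.51 on the control arrays, each PNP value lying above each control. Its difference was 0.22 (SE 0.10, adjusted p = 0.791), and it was below 0 under 1 of 17 alternatives. Rb1, the retinoblastoma protein, gave 0.18 (SE 0.15) and E2f1, an activator, gave -0.12 (SE 0.10).

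Of the S phase markers 11 of 12 had a PNP mean below the control mean, with a median of -0.12, and 11 or 12 did with the other 3 scalings. With another background correction 8 of 12 did, with a median of -0.07, as did 8 of 12 without control array 3. With slide column as a block 7 of 12 did, with a median of -0.04, and without PNP array 3 it was 5 of the 9 that could be tested. Cdca7, an E2F and Myc target with a role in DNA methylation, had 0.37, 0.53 and 0.29 on the PNP arrays, against 0.75, 0.72 and 0.65 on the control arrays, which did not overlap. Its difference was -0.31 (SE 0.10, unadjusted p = 0.0133, adjusted p = 0.740 in limma), from -0.38 to -0.26 over 17 alternatives without a call. Pola1, which encodes the polymerase alpha catalytic subunit, gave -0.37 (SE 0.16) and Rrm1, of ribonucleotide reductase, gave -0.15 (SE 0.11), each on 2 PNP arrays.

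The G2 and M phase markers did not share that sign, since 4 of 11 were below 0 with a median of 0.03, and from 6 to 7 of 11 under the other scalings. Ccnb2, cyclin B2, gave 0.25 (SE 0.10, adjusted p = 0.740), Plk1, a mitotic kinase, gave 0.20 (SE 0.13), and Kif11, a spindle motor, gave -0.19 (SE 0.12). Of the CDK inhibitors and G1 cyclins and kinases 0 of 7 were below 0, with a median of 0.05, and 4 of 7 when arrays were scaled on their median. Cdkn2d, an inhibitor of Cdk4 and Cdk6, had 1.86, 1.70 and 1.65 on the PNP arrays, against 1.55, 1.31 and 1.63 on the control arrays, with no overlap. Its difference was 0.24 (SE 0.12, adjusted p = 0.805). Cdk4 gave 0.16 (SE 0.11) and Ccnd2, cyclin D2, gave 0.10 (SE 0.09).

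By even minus odd column, 14 of 14 helicase activation and firing genes, 12 of 12 S phase markers, 7 of 7 turnover genes and 10 of 11 G2 and M phase markers were below 0, with medians of -0.20, -0.19, -0.16 and -0.22. Over all genes 50.4% were below 0. Of the E2F and RB genes 4 of 8 were below 0, with a median of 0.0078. The group and the column are told apart only through PNP array 2 and control array 2, which lie in the column kind that most arrays of their group do not.

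**Figure D4:**
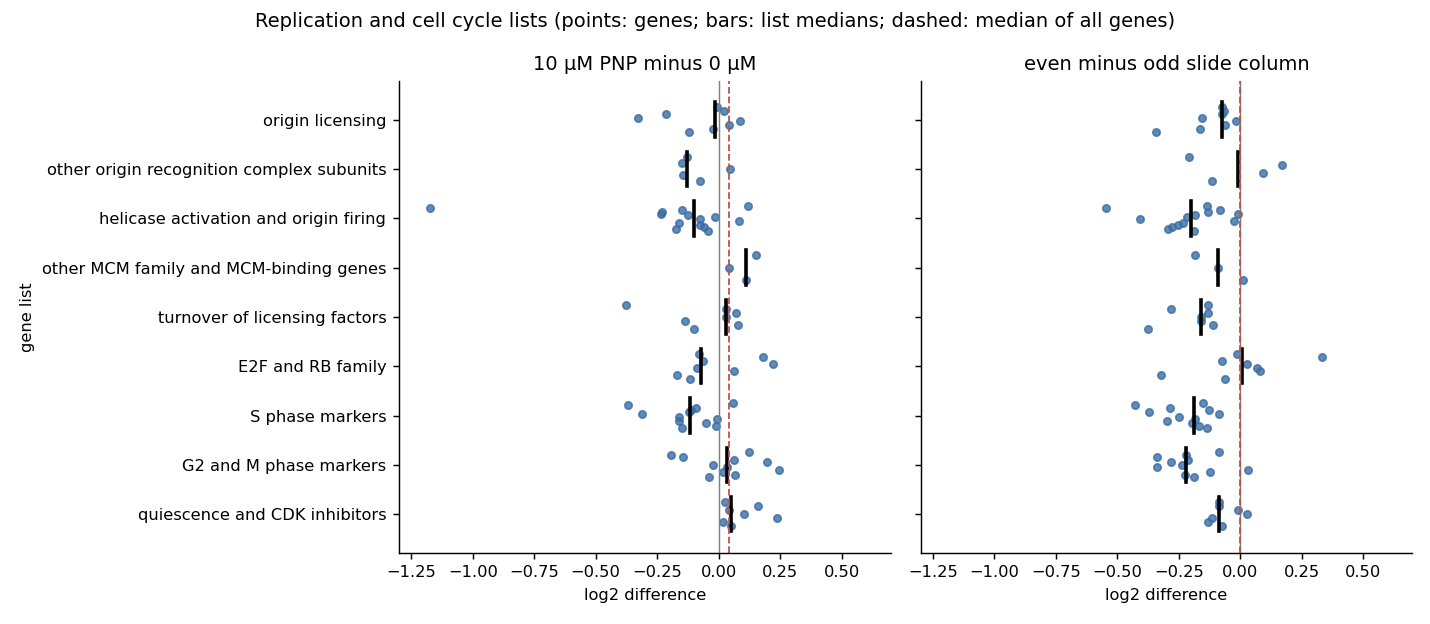
Log2 differences of each tested gene in the licensing list and the lists around it, PNP minus control (left panel) and even minus odd slide column (right panel). Points are genes, bars list medians and dashed lines the median of all genes; firing genes and S phase markers lie mostly below 0 in both panels.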

How the data were processed

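RNA of 6 TM3 samples was amplified, labelled and hybridised to 1-colour arrays, per the labels' protocols. The deposited scanner files hold intensity values, background-subtracted and detrended within each array, made with Agilent Feature Extraction 11.5.1.1 per the file headers (10.7 per the submitters' processing notes). The labels name Cy3 and the files hold red columns, and which is right is not settled. The authors also deposited a normalized table of log2 values. They correlated at 0.9996 or more with the scanner values of their own array, and the sources used here do not say how they were obtained.

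In R 4.3.3 with the data.table package (1.17.8) and limma 3.58.1, outlier-marked spots were dropped, spots of a probe averaged, and the log2 signal scaled on the 75th percentile of each array's 59305 non-control spots. A probe was tested if well above background on all 3 arrays of a group, with at least 2 values in each group. RefSeq accessions (GRCm38.p6) named 33767 of 56605 probes. The brightest tested probe stood for a gene, and 2028 of 13138 genes lacked an array. Groups were compared with lmFit and eBayes, without and with slide column, and Benjamini-Hochberg adjustment over all genes at 0.05. Intervals are 95%. The number of arrays limits the precision. On simulated data for the group comparison (10 runs, 200 changed genes among 13138) 56.4% of 1.5-fold and 97.2% of 2-fold changes were called, and for the column comparison 40.6% and 91%. Each run changed genes by 1.5, 2, 3 and 4-fold at once, with noise independent between genes and arrays. False calls averaged 12.4 a run by group and 11 by column. Strong changes planted together ease the Benjamini-Hochberg threshold, and 0 genes passed by group in the real data. These shares may therefore be too high for the data here.

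The members, the lists and the comparison by slide column were chosen with earlier results of these data known. Named genes are the 10 members, the 3 genes of smallest unadjusted p in each list, and the 5 most correlated with the members' mean. The normexp alternative used the spots' median signals, since the files hold no mean signal, and gene names came from accessions, since the scanner files hold none. Other alternatives were scaling, filters, probe averaging, outlier spots, blocks and leaving out each array.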

Additional observations from a re-analysis of the deposited data

How the results depend on the processing

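No licensing gene passed the test under any alternative tried, in PNP minus control or by slide column, leaving out each array included. Of 134 member values of PNP minus control under alternatives 18 had the opposite sign, and of 118 by column 12 had it. With column as a block Gmnn gave 0.004 and Mcm5 0.030. Normexp gave 0.018 for Mcm5, -0.0011 for Cdt1 and, by column, 0.0012 for Cdt1. Scaling on the median gave -0.037 for Cdt1, -0.020 for Mcm6 and, by column, 0.021 for Mcm7. Quantile normalization gave -0.066 for Cdt1, -0.018 for Mcm6, -0.023 for Mcm7 and, by column, 0.013 for Gmnn and 0.015 for Mcm7. The authors' values gave -0.064 for Cdt1, -0.015 for Mcm6, -0.016 for Mcm7 and, by column, 0.013 for Gmnn and 0.020 for Mcm7. The mean of all tested probes gave -0.13 for Mcm6 and -0.055 for Mcm7, and without a group term Mcm7 was 0.013 by column. Leaving out 1 array moved the group difference from -0.27 to 0.040 for Mcm3, from -0.11 to 0.068 for Mcm5, from -0.0008 to 0.061 for Cdt1 and from -0.028 to 0.0045 for Gmnn. By column it moved Cdc6 from -0.38 to 0.23, Mcm7 from -0.10 to 0.052 and Orc1 from -0.54 to 0.22. The cause was not tested for any of these.

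The members' median of -0.02 became -0.091 with median scaling, -0.069 with quantile normalization, -0.068 in the authors' values, -0.089 with marked spots kept and -0.093 with probes averaged, and ran from -0.11 without PNP array 2 to 0.051 without PNP array 3. The all-gene median moved in the same way, from 0.04 to -0.02, 0.0097 and 0.0102 in the first 3 settings. By column the members' median of -0.07 became -0.12 with marked spots kept and -0.16 with probes averaged, and ran from -0.17 to -0.051 over the arrays left out.

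Over all genes, PNP minus control called 1 gene with column as a block and from 0 to 23 with an array left out (23 without PNP array 1). The 19 genes called by column became 38 without a group term, 57 with normexp, 48 with median scaling, 8 with quantile normalization and in the authors' values, 41 with probes above background on all 6 arrays, 0 without a filter on dim probes (1846 at an unadjusted p below 0.05 in limma), 2 with probes averaged, and from 0 (without PNP array 1) to 310 (without control array 2) with an array left out. Same-numbered samples did not deviate together (correlations -0.312, -0.224 and -0.0259 over 11110 genes). Each such pair lay in slide columns of opposite kinds, so these correlations cannot decide whether the numbers pair the samples. With a replicate block the members' median was -0.0128 and 0 members were called. Of the 24 genes named from the lists 16 kept their sign in PNP minus control under all alternatives, and 0 were called in it under any. By column, genes of the lists were called with an array left out. Without control array 2, Uhrf1 passed, with a difference of -0.91. The controls left there all lay in odd columns, so the column term compared PNP arrays 1 and 3 with PNP array 2 alone. Calls in that setting therefore rest on 1 array. Uhrf1 was also dim, and well above background on 5 arrays only. Without control array 3, Ccne2 (-1.14, adjusted p = 0.0153 in limma) and Orc5 (-0.66, adjusted p = 0.0481) passed. Without control array 3 the first Orc5 probe had too few unmarked spots, so that Orc5 value is from its second probe. With all arrays kept, the first probe had no column estimate, and the second gave a PNP minus control difference of 0.16 (SE 0.23). Uhrf1 was named after its value was seen.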
